A study of Mus musculus with 12 samples.

Results

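The numbered Zfp genes encode zinc finger proteins, most of them DNA-binding proteins built from repeated C2H2 fingers, and they were described here in female mouse primordial germ cells of stage E14.5. Members were chosen by symbol, Zfp followed by digits without Zfp42, Zfp264 and Zfp296, and by their level, a mean over the 12 libraries of at least 5 CPM (a count scaled to a common library total). Of 344 such symbols among the 35976 rows of the table, 261 passed and 83 did not. The lowest members were Zfp273 at 5.06, Zfp30 at 5.06 and Zfp524 at 5.08 CPM, and the highest symbols left out were Zfp324 at 4.89, Zfp423 at 4.85 and Zfp872 at 4.83 CPM. All 261 members passed the filter on low counts that preceded the tests.

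An Oct4-GFP reporter, which all 4 groups carried, served to sort the cells, and RNA was taken from 5000 cells per library, followed by poly(A) selection. TET1 is an enzyme that oxidizes 5-methylcytosine in DNA. Wild-type embryos (WT) were compared with homozygous Tet1HxD/HxD embryos, whose TET1 is catalytically dead (HxD), homozygous Tet1V/V embryos, whose TET1 is described as stalling at 5-hydroxymethylcytosine (V), and Tet1-/- knockout embryos (KO), with 3 libraries in each group. Whether the 3 libraries of a genotype represent different animals or litters is not stated in the labels. Each p-value therefore measures the spread among these libraries only, and that spread may be technical.

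A C2H2 finger folds around a zinc ion and reads a few bases of DNA, so that an array of fingers recognizes a longer site. Many of the proteins also carry a KRAB domain, which binds TRIM28; TRIM28 in turn recruits the histone methyltransferase SETDB1, and the resulting H3K9 methylation silences retroelements and maintains the methylated allele of imprinted regions. Primordial germ cells at this stage have lost most of their DNA methylation, and female cells are entering meiosis. Other numbered Zfp genes have no part in KRAB repression and act in transcription, RNA handling, ribosome assembly, ubiquitin transfer or mitosis.

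Across the libraries the total counts ran from 18471158 to 29495313, and the number of genes with a count ran from 12568 in KO3 to 17614 in HxD3, with 12815 in HxD1 and 13879 in KO1. Germ cell markers (9 genes, among them Ddx4, Dazl and Pou5f1) summed to between 3488 and 4943 CPM in WT and between 2859 and 3398 CPM in the mutants. The 9 did not move together. Ddx4, Dazl, Sycp3 and Stra8 had lower means in all 3 mutants, with Dazl called lower in each by edgeR. Stra8 was called lower in KO (log2 change -2.90, adjusted p = 0.000907 by edgeR) and V (-2.16, 0.0338), and Sycp3 in KO (-2.08, 0.0176). Pou5f1, Dppa3, Kit, Dnd1 and Nanos3 had higher means, with Pou5f1 called higher in V by edgeR (log2 change 1.14, adjusted p = 0.0397). Summed markers of pregranulosa cells were between 9.13 and 54.9 CPM over all libraries, those of mesonephros and epithelium between 21.6 and 61.9 CPM, those of blood at most 24.8 CPM, those of stroma at most 10.5 CPM and those of endothelium at most 4.98 CPM. In bulk RNA, fewer cells of a type and less RNA per cell cannot be told apart, and the part of these marker differences in the results below was not tested. CPM values from here on are normalized by TMM.

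The members were mostly of low abundance. Their median mean level was 17.8 CPM, with quartiles of 9.69 and 42.1 CPM, against a median of 45.4 CPM for the 10406 genes of the table that were tested and reached the same 5 CPM. Per kilobase of annotated exon the medians were 5.13 CPM for members and 13.8 CPM for the genes with a length. Of the members, 23 reached 100 CPM and 134 stayed under 20 CPM. The level had a part in choosing the members, so these values are a description. The 261 genes together took between 0.927% and 1.10% of a library's counts, and their summed level was 9925 ± 613 CPM in WT (mean ± SD, n = 3), 10135 ± 581 in HxD, 10299 ± 881 in KO and 9498 ± 298 in V. The range of each mutant group overlapped that of WT. Every V library (9160 to 9722 CPM) lay below every HxD library (9795 to 10805 CPM), a difference that was not tested.

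**Figure D1:**
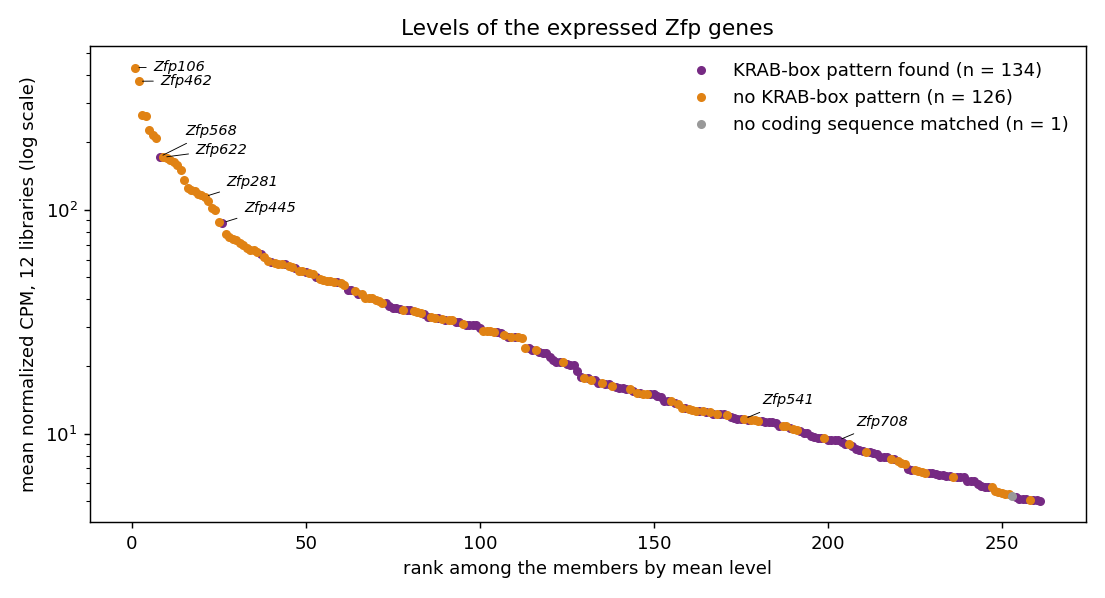
Mean level of each of the 261 members over the 12 libraries in TMM-normalized CPM (log axis), ordered from highest to lowest and coloured by whether a KRAB pattern was found in the translated coding sequence. The upper end, from Zfp106 at 432 CPM down to 100 CPM, holds 1 gene with the pattern, Zfp568, and most genes with the pattern lie under 20 CPM.

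A KRAB pattern was found in the coding sequence of 134 members and not in 126, and no coding sequence was matched for Zfp783. Members with the pattern had a median level of 12.8 CPM and 3.89 CPM per kilobase, and those without it 34.8 CPM and 8.12 CPM per kilobase. The KRAB members carried a median of 12 C2H2 patterns and the others 7.5. Of the 260 translated members, 153 had at least 10 C2H2 patterns, and the highest number was 37. In 8 members no C2H2 pattern was found, among them Zfp36, whose protein uses fingers of the CCCH type to bind AU-rich mRNA, and Zfp330, a nucleolar protein.

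The 6 members of highest mean level were Zfp106 (432 CPM), Zfp462 (375 CPM), Zfp207 (266 CPM), Zfp318 (262 CPM), Zfp638 (228 CPM) and Zfp664 (215 CPM), and none of them held the KRAB pattern. Zfp106 is an RNA-binding protein, Zfp462 a chromatin factor of pluripotent cells, Zfp207 a kinetochore and spindle protein, and Zfp638 a nuclear protein that silences retroviral DNA. Zfp106 was at 274, 377 and 439 CPM in WT, 376, 427 and 428 in HxD, 507, 693 and 464 in KO, and 405, 334 and 453 in V. All 3 KO libraries lay above all 3 WT libraries, while HxD and V overlapped WT. Its difference between KO and WT was 0.61 ± 0.19 on the log2 scale (SE), with an adjusted p of 0.118 by edgeR's quasi-likelihood test, and was not called. Per kilobase of exon the order was different: Zfp428, named here because it led this order, was at 81.8, followed by Zfp622 (61.3), Zfp207 (56.8), Zfp664 (52.5) and Zfp106 (45.6 CPM per kilobase). Zfp462 came 10th in that order, at 35.2.

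Members that varied least over the 12 libraries were Zfp942, with an SD of 13.4% of its mean, Zfp217 with 13.4% and Zfp664 with 13.7%. Zfp217, a corepressor partner and oncogene product, lay between 170.3 CPM in V2 and 267 CPM in WT2. Those that varied most were Zfp534 (119%), Zfp36 (105%) and Zfp783 (89.0%), and all 3 had a mean under 6 CPM. Zfp534 was at 0 in HxD1 and V2 and at 22.5 CPM in KO3. Over all members the median was 30.0%, with quartiles of 22.8% and 42.5%, against 24.6% for the 10406 genes. The variation followed the level, with Spearman's rho of -0.82 across the 261 genes, which share the same 12 libraries. All 45 members above 50% had a mean under 20 CPM.

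**Figure D2:**
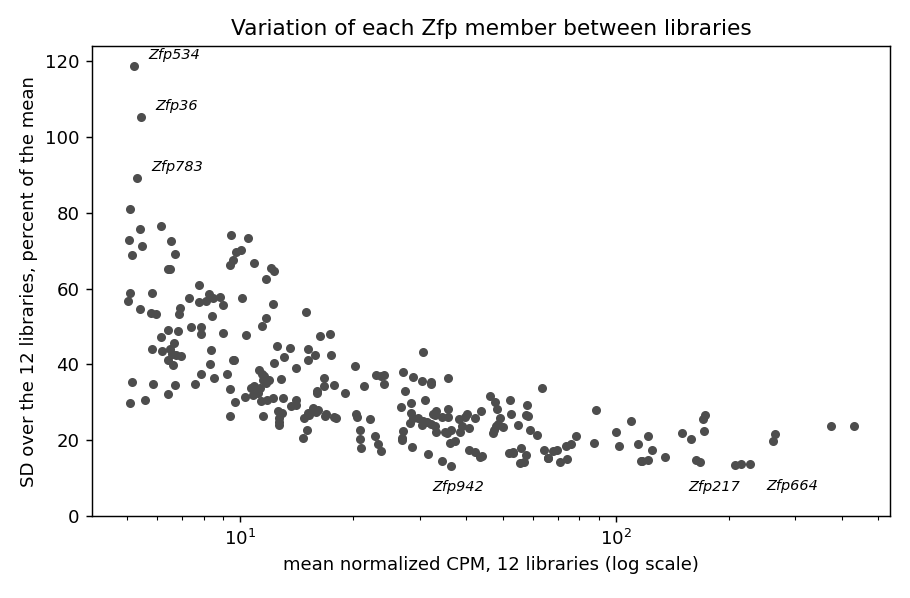
SD over the 12 libraries as a percent of the mean (vertical axis) against mean TMM-normalized CPM (log axis), 1 point for each of the 261 members. Points above 50% all lie under 20 CPM, and Zfp217 and Zfp664, both above 200 CPM, lie near the lower edge at 13.4% and 13.7%.

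The extremes were spread unevenly over the libraries, in members as in other genes. KO3 held the highest value of 43 members (16.5%, against 12.9% of the genes at 5 CPM or more) and the lowest of 47 (18%, against 15.4%). WT1 held the highest of 36 (13.8%, against 16.4%) and the lowest of 31 (11.9%, against 18.5%), and HxD1 the highest of 34 (13.0%, against 10.7%) and the lowest of 39 (14.9%, against 13.5%). In HxD3 the lowest value was found for 1 member (0.383%, against 3.1%) and in V3 for 5 (1.92%, against 1.78%). Members without any count numbered 8 in KO3, 5 in HxD1 and 2 in V2, and in each of the other 9 libraries all members had counts. KO3 and HxD1 were also the libraries in which the fewest genes had a count.

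Against WT, 2 of the 261 members were called in any mutant, both in KO and both lower. In HxD 0 members were called, where 0.0309% of the 16166 genes tested and 0.048% of those at 5 CPM or more were called. In KO 2 members (0.766%) were called, where 1.22% of the genes tested, 1.85% of those at 5 CPM or more and, on the lower side alone, 0.759% were called. In V 0 members were called, where the shares were 0.155% and 0.231%. The threshold was an adjusted p under 0.05 by edgeR's quasi-likelihood test, adjusted over all genes tested. At an unadjusted p under 0.05, 7 members were higher and 9 lower in HxD, 16 higher and 8 lower in KO, and 4 higher and 13 lower in V. The same rule picked 5.53% higher and 3.43% lower of all genes at 5 CPM or more in HxD, 9.92% and 7.13% in KO, and 7.10% and 5.48% in V. The 3 comparisons share the WT libraries and are not independent of one another.

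The 2 called genes, neither of which holds a KRAB pattern, are shown with the 250 bases before their RefSeq start (assembly GRCm38.p6, plus strand), because DNA methylation, which TET1 acts on, is laid on CpG sites. Capitals mark each CpG, that is the letters CG, which read the same on both strands. The window of Zfp622 is chr15:25984116-25984365 with 14 CpG, and that of Zfp512 is chr5:31452186-31452435 with 11 CpG.
Zfp622: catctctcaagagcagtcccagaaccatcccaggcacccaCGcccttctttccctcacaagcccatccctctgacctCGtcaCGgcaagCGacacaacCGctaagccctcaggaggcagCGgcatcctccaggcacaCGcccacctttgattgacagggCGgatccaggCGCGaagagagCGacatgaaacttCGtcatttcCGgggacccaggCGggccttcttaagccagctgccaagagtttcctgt
Zfp512: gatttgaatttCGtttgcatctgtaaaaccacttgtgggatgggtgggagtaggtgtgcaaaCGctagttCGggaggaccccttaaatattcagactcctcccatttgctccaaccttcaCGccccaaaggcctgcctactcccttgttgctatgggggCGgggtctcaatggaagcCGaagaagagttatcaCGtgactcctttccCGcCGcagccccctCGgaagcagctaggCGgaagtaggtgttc
A promoter was found in the RefSeq table for 216 of the 261 members. Their windows held a median of 12 CpG, against 6 over all 27025 promoters of the same length, and 55.56% of them held at least 11, against 36% of all promoters. The 27025 promoters belong to genes of any level, while members were chosen by level. The 2 sets are therefore unlike, and promoters of the other genes at 5 CPM or more were not compared. Promoters of KRAB members held a median of 9 CpG and those of the other members 14. Methylation was not measured in these libraries, so the windows are shown as sequence only.

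Zfp622 encodes a factor of late large ribosomal subunit assembly. Its level was 258, 195 and 189 CPM in WT, 139.7, 114 and 126 in KO, 196, 177 and 146 in HxD, and 155, 188 and 176 in V. All KO libraries were below all WT libraries, V was just below WT without overlap, and HxD overlapped WT. By edgeR the log2 change in KO was -0.75 ± 0.18 (SE), with an adjusted p of 0.0357. It was -0.30 ± 0.18 in both HxD and V, with adjusted p of 0.761 and 0.619. The call was lost without WT1 (-0.60, adjusted p = 0.215), without KO2 (-0.69, 0.112), without KO3 (-0.76, 0.0689), and in a fit of KO and WT alone (-0.78, 0.105, all by edgeR).

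Zfp512 was at 152, 132 and 154 CPM in WT, 95.0, 96.0 and 54.3 in KO, 103, 99.1 and 98.2 in HxD, and 128, 108 and 101 in V. Every mutant library lay below every WT library, and KO3 was the lowest of all. By edgeR the log2 change in KO was -0.83 ± 0.20 (SE), with an adjusted p of 0.0379. HxD differed by -0.54 ± 0.20 (adjusted p = 0.551) and V by -0.38 ± 0.20 (0.563). The KO call was lost without KO3 (-0.62, adjusted p = 0.159), without WT1 (-0.80, 0.0911), without HxD1, KO1 and KO3 together (-0.63, 0.368), and in a fit of KO and WT alone (-0.86, 0.134, all by edgeR). The count of 2 called members in KO became 0 without WT1, 1 without KO2 and 7 without WT3. The share of all genes called in those fits is not given beside these counts.

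**Figure D3:**
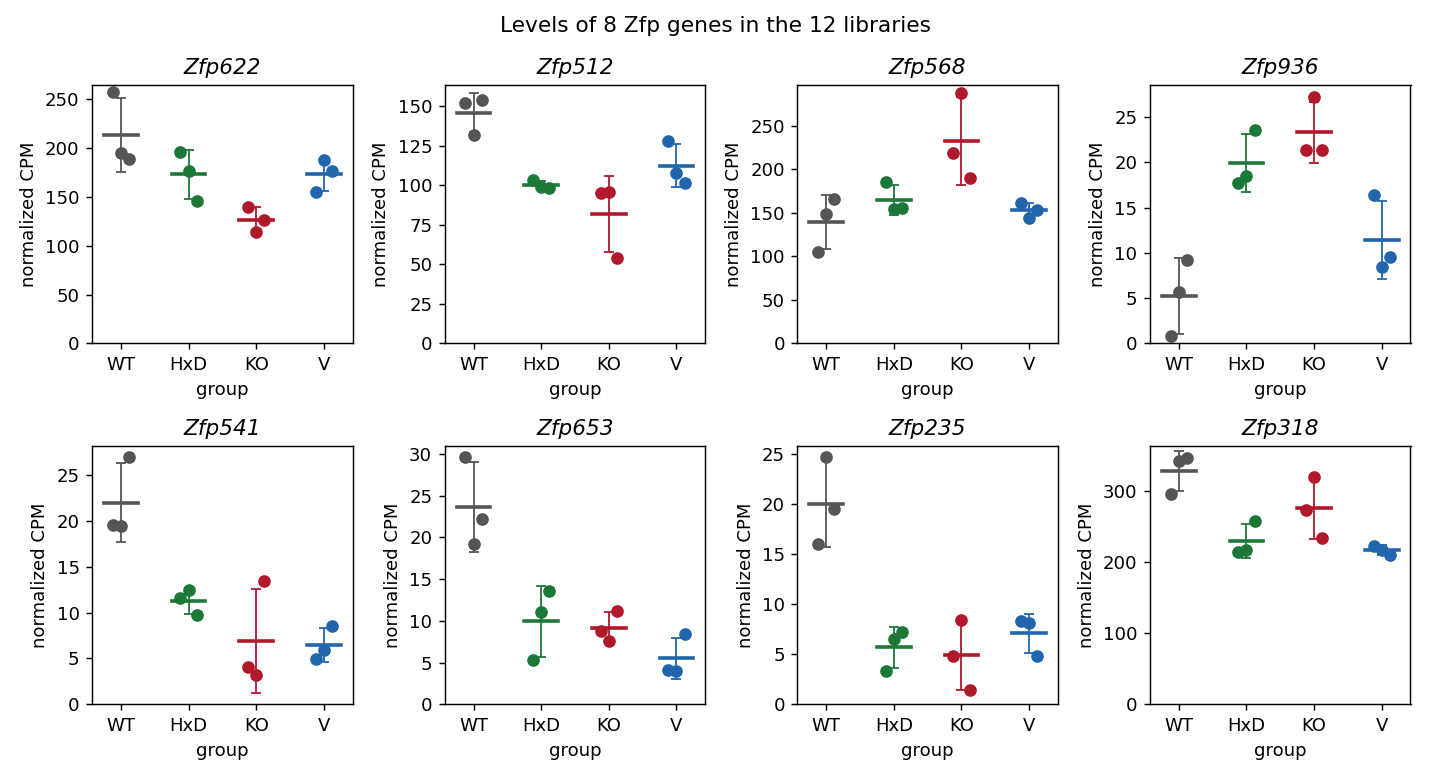
TMM-normalized CPM of 8 members in every library, by group, with a point per library, a bar at the group mean and whiskers of 1 SD (n = 3). Zfp622 and Zfp512 were called lower in KO; Zfp512, Zfp541, Zfp653 and Zfp235 have all 9 mutant libraries below the 3 WT libraries, and the other genes shown overlap WT in at least 1 mutant.

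Just outside the threshold in KO were 2 KRAB genes with higher values. Zfp568, which silences a placental transcript of Igf2 in the early embryo, was at 105, 149 and 165 CPM in WT and 219, 288 and 189.7 in KO, with 185, 155 and 156 in HxD and 161, 144 and 153 in V. The KO libraries lay above all WT libraries and the other mutants overlapped WT. Its log2 difference in KO was 0.73 ± 0.19 (SE), with an adjusted p of 0.0530 by edgeR. Zfp936 was at 0.824, 5.72 and 9.20 CPM in WT, 17.7, 18.5 and 23.6 in HxD, 21.4, 27.2 and 21.4 in KO, and 16.4, 8.47 and 9.53 in V. HxD and KO lay wholly above WT, while 1 V library lay within the WT range. Its log2 difference was 2.15 ± 0.57 (SE) in KO and 1.93 ± 0.57 in HxD, with adjusted p of 0.0560 and 0.358 by edgeR; WT1 was the lowest of the 12 libraries. Calls depended on the setting: Zfp568 and Zfp936 were each called in KO in 11 of 20 alternatives, and Zfp936 in HxD in 1. For Zfp936 the adjusted p over the alternatives ran from 0.00613 to 0.196 in KO and from 0.0164 to 0.932 in HxD. Of its 50-base windows 15.2% occur in other annotated genes, so part of its count is uncertain.

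The members with the largest differences among those whose 3 mutant and 3 WT libraries did not overlap are given by comparison. In HxD the largest were Zfp936, Zfp750 (1.36), Zfp599 (1.03) and Zfp367 (0.78) on the higher side and Zfp235 (-1.82), Zfp580 (-1.56), Zfp467 (-1.40) and Zfp653 (-1.25) on the lower, all log2. In KO they were Zfp534 (2.67), Zfp936, Zfp365 (1.93) and Zfp750 (1.56), and below WT Zfp629 (-2.27), Zfp783 (-2.23), Zfp235 (-2.02) and Zfp541 (-1.67). In V they were Zfp599 (1.22), Zfp953 (1.09), Zfp932 (1.05) and Zfp422 (1.01), and below WT Zfp783 (-2.19), Zfp653 (-2.10), Zfp672 (-1.82) and Zfp541 (-1.77). Leaving out 1 library moved the Zfp783 value to between -4.60 and -1.65 in KO (-4.60 without KO2) and between -3.62 and -1.64 in V (-3.62 without V3). None of these passed the threshold by edgeR, with adjusted p from 0.0560 for Zfp936 in KO to 0.873 for Zfp599 in HxD. Zfp750 is known as a regulator of epidermal differentiation and Zfp367 as a cell cycle transcription factor.

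Groups without overlap were counted over all members. In HxD 13 members (4.98%) were higher and 18 (6.90%) lower, against 7.91% and 6.05% of the genes at 5 CPM or more. In KO 18 (6.90%) were higher and 21 (8.05%) lower, against 11.1% and 8.94%. In V 18 (6.90%) were higher and 32 (12.3%) lower, against 10.5% and 8.49%. The higher side was thus less frequent among members than in the background in all 3 comparisons. On the lower side the shares in HxD and KO lay near the background, and that in V stood above it. These shares are descriptions, with no test of their difference. The background genes had a higher median level (45.4 CPM, against 17.8 CPM for members) and were not matched to the members by level.

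**Figure D4:**
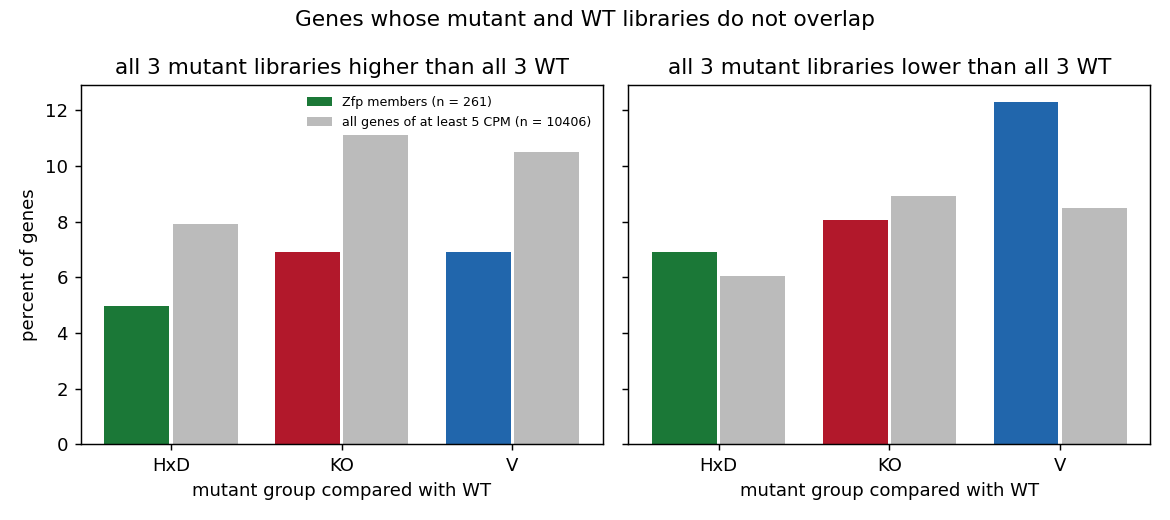
Percent of genes whose 3 mutant libraries are all higher (left) or all lower (right) than the 3 WT libraries, for the 261 members (coloured) and for the 10406 genes at 5 CPM or more (grey). On the lower side in V the members reach 12.3% and all genes 8.49%; on the higher side the member bars stand below the grey bars in all 3 mutants.

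The median log2 change over members was 0.03 in HxD, -0.00049 in KO and -0.10 in V, beside 0.02, 0.04 and 0.03 over the genes at 5 CPM or more. Without 1 library at a time the V median lay between -0.13 and -0.03, that of KO between -0.08 and 0.03 and that of HxD between -0.02 and 0.06. Library by library, the median member stood at -0.05, -0.13 and -0.01 in V1, V2 and V3 against the WT mean, and at 0.02, 0.12 and -0.05 in WT1, WT2 and WT3, so the V and WT libraries overlapped. The interval of log2 values holding the middle 50% of members ran from -0.29 to 0.27 in HxD, from -0.39 to 0.31 in KO and from -0.37 to 0.24 in V.

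**Figure D5:**
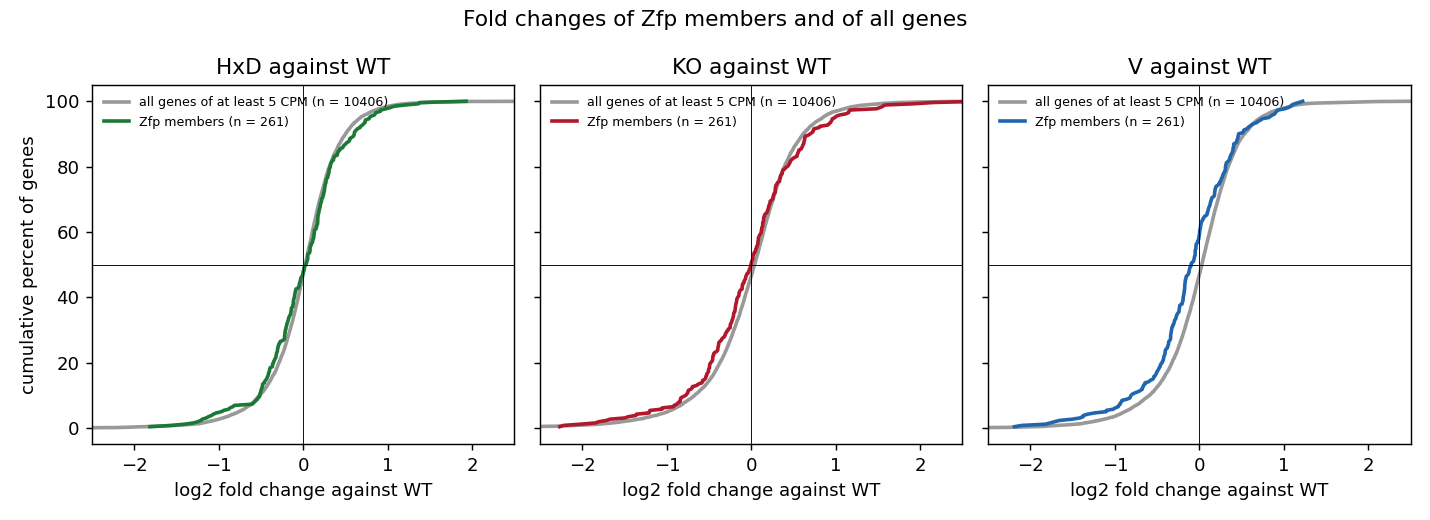
Cumulative percent of genes (vertical axis) by log2 fold change against WT for members (coloured, n = 261) and all genes at 5 CPM or more (grey, n = 10406), 1 panel per mutant. The member curve follows the grey curve in HxD and lies to its left around the middle in V, where the medians are -0.10 and 0.03.

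Patterns over the 3 mutants were counted from the same non-overlap. The libraries of 6 members were below WT in all 3 mutants (2.30%, against 2.18% of the genes at 5 CPM or more), namely Zfp235, Zfp512, Zfp541, Zfp617, Zfp653 and Zfp865, of which Zfp617 and Zfp865 are outside the rule for named genes and are given to complete the count. In 0 members were all 3 mutants above WT, against 2.62%. In 177 members (67.8%, against 66%) every mutant overlapped WT. Zfp235 was at 15.9, 24.6 and 19.5 CPM in WT, 3.35, 6.54 and 7.16 in HxD, 4.84, 8.45 and 1.45 in KO, and 8.26, 8.14 and 4.78 in V. The highest mutant library thus stood well below the lowest WT library, yet adjusted p by edgeR was 0.530, 0.141 and 0.456 in HxD, KO and V. Zfp653, a transcriptional repressor, was at 29.6, 19.2 and 22.1 CPM in WT, 5.25, 11.1 and 13.5 in HxD, 8.77, 7.58 and 11.2 in KO, and 4.10, 4.02 and 8.36 in V. V was the lowest group, with -2.10 ± 0.55 (SE) on the log2 scale and an adjusted p of 0.120 by edgeR. It was called in V in 3 of 20 alternatives, over which the adjusted p ran from 0.00168 to 0.518. Part of the Zfp653 count is uncertain, because 20.5% of its 50-base windows occur in other annotated genes.

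Zfp541, a chromatin protein required for meiotic prophase in male germ cells, was the only meiosis gene among the role lists. It stood at 19.6, 19.5 and 27.0 CPM in WT, 11.6, 12.5 and 9.70 in HxD, 4.12, 3.19 and 13.4 in KO, and 4.94, 5.88 and 8.57 in V. All mutant libraries were below WT, and KO3 stood apart from the other KO libraries. By edgeR the V difference was -1.77 ± 0.58 (log2, SE; adjusted p = 0.244), the KO difference -1.67 ± 0.58 (0.169) and the HxD difference -0.97 ± 0.57 (0.750). Without KO3 the KO difference was -2.60 with an adjusted p of 0.0325 by edgeR. It was called in 3 of 20 alternatives in KO and in 2 of 20 in V. Of the germ cell markers, the meiotic genes Stra8 and Sycp3 also had lower means in the mutants. Stra8 was called lower in KO and V and Sycp3 in KO by edgeR. Higher means were found for 5 of the 9 markers, and the part of the markers in the result was not tested.

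Of 9 listed genes known for imprint maintenance or retroelement silencing, 6 were members, and 0 were called in any mutant. Among all genes at 5 CPM or more, 0.048% were called in HxD, 1.85% in KO and 0.231% in V. Zfp445, which protects imprinted methylation together with Zfp57, was at 65.5, 89.7 and 87.7 CPM in WT, 92.9, 79.4 and 118 in HxD, 81.1, 101 and 71.6 in KO, and 69.8, 115 and 77.6 in V. Every group overlapped WT, and the log2 differences were 0.26 ± 0.22, 0.06 ± 0.22 and 0.11 ± 0.22 (SE). Zfp57 itself was under the threshold, with a mean of 2.19 CPM, 3 libraries at 0 and a highest value of 6.03 CPM. Zfp819 (4.07 CPM) and Zfp92 (0.0537 CPM) were also under it.

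Zfp809, which silences murine leukemia virus type proviruses, was at 13.8 ± 1.57 CPM in WT (mean ± SD, n = 3), 12.2 ± 3.27 in HxD, 9.47 ± 5.10 in KO and 7.87 ± 2.15 in V. The 3 V libraries, at 10.3, 6.91 and 6.38 CPM, lay below the WT libraries at 15.3, 12.1 and 14.1. The difference was -0.82 ± 0.57 on the log2 scale with an adjusted p of 0.695 by edgeR. Zfp932, which binds endogenous retroviruses, went the other way, from 6.12, 9.05 and 9.32 CPM in WT to 19.6, 14.1 and 17.1 in V, with 1.05 ± 0.53 and an adjusted p of 0.528. Zfp961 (35.7 ± 14.6 CPM in WT) and Zfp708 (8.63 ± 2.68 CPM in WT) overlapped WT in every mutant. All 50-base windows of Zfp708 and 45.2% of those of Zfp932 occur in other annotated genes, so the counts of both are uncertain. The median of the 6 genes was 0.13 in HxD, 0.23 in KO and 0.12 in V on the log2 scale, beside 0.02, 0.04 and 0.03 over all genes at 5 CPM or more.

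Of 22 listed genes of pluripotency, chromatin and transcription, 20 were members, with Zfp423 and Zfp703 (3.69 CPM) under the threshold. Again 0 were called, where at most 1.85% of the genes at 5 CPM or more were called in a comparison with WT. The medians were 0.10 in HxD, 0.06 in KO and -0.17 in V. Values in V were below WT for 16 of the 20 and above it for 4, beside 107 of all 261 members above it. The count over all genes is not given. Without overlap, 3 of the 20 lay below WT in V and 3 above it, where 8.49% and 10.5% of the genes at 5 CPM or more did. Zfp281, a pluripotency factor that binds TET1 in embryonic stem cells, was at 114, 114 and 109 CPM in WT, 90.4, 147 and 131 in HxD, 132, 127 and 81.3 in KO, and 135, 77.8 and 117 in V. The WT libraries fell within the range of each mutant group, and the log2 differences lay between -0.04 and 0.13 with an SE of 0.22. Zfp318, a regulator of IgD transcription in B cells, was at 295, 342 and 346 CPM in WT, 214, 217 and 257 in HxD, 273, 319 and 233 in KO, and 223, 217 and 209 in V. HxD and V lay below all WT libraries and KO overlapped them; adjusted p by edgeR was 0.464 in HxD (-0.52 ± 0.17), 0.533 in KO (-0.25 ± 0.17) and 0.153 in V (-0.60 ± 0.17, SE).

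Zfp687 lay at 135, 177 and 163 CPM in WT and at 109, 116 and 133 in V, without overlap, and its log2 difference in V was -0.41 ± 0.18 (SE) with an adjusted p of 0.463 by edgeR. Zfp367 was at 22.4, 37.4 and 35.8 CPM in WT and at 59.2, 39.8 and 64.8 in HxD, 56.2, 49.2 and 49.5 in V, and 73.9, 47.3 and 36.1 in KO. HxD and V lay above WT and KO overlapped it, with log2 differences of 0.78 ± 0.28, 0.70 ± 0.28 and 0.72 ± 0.28 (SE) in that order and adjusted p of 0.525, 0.403 and 0.239 by edgeR. Zfp384, a transcription factor also called CIZ, was lower in KO at 26.9, 48.8 and 37.2 CPM than in WT at 50.7, 63.6 and 69.2, with -0.70 ± 0.26 and an adjusted p of 0.219 by edgeR. Part of the Zfp384 count is uncertain, because 15.5% of its 50-base windows occur in other annotated genes. The X-linked Zfp711, a partner of the demethylase PHF8, varied among WT libraries from 6.65 to 27.6 CPM, and every mutant group overlapped this range. Its mean was 18.6 CPM in WT, 8.5 in HxD, 6.8 in KO and 9.6 in V. The log2 differences were -1.12 ± 0.63, -1.46 ± 0.64 and -0.96 ± 0.63 (SE) in HxD, KO and V, with adjusted p of 0.736, 0.315 and 0.665 by edgeR. The remaining listed members had means between 12.5 CPM for Zfp503 and 164 CPM for Zfp516 when Zfp462 and Zfp217 are set aside.

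All 13 listed genes of RNA handling, ribosome assembly, ubiquitin transfer and mitosis were members, and they had the highest median level per kilobase of the lists, 24.2 CPM. Of these, 1 was called, Zfp622, lower in KO, where 0.759% of the genes at 5 CPM or more were called lower. The medians were -0.01 in HxD, -0.15 in KO and -0.04 in V. Zfp598, the ubiquitin ligase that marks collided ribosomes, was at 112, 108 and 108 CPM in WT. It was at 82.0, 142 and 126 in HxD, at 146, 147 and 162 in KO and at 124, 121 and 118 in V. KO and V lay above the narrow WT range and HxD spanned it; the difference in KO was 0.47 ± 0.19 on the log2 scale (SE) with an adjusted p of 0.264 by edgeR. Zfp593, another factor of the large ribosomal subunit, was at 16.1 ± 6.52 CPM in WT (mean ± SD, n = 3) and 8.52 ± 4.67 in KO, and the groups overlapped. Zfp207 was at 247 ± 61.3 CPM in WT and between 254 and 286 CPM in the means of the mutants, and Zfp451, a SUMO ligase, at 179 ± 27.7 CPM in WT and between 147 and 180.4 CPM in those means. Zfp36, which destabilizes AU-rich mRNA, was at 18.5 CPM in WT1 and 14.2 CPM in HxD1 but at 2.49 and 3.62 CPM in WT2 and WT3.

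Between mutants 0 members were called in each of the 3 pairs, where 0% of the genes tested were called. At an unadjusted p under 0.05 by edgeR, 5 members were higher and 3 lower in HxD than in KO, where 2.2% and 1.65% of the genes at 5 CPM or more were. In V against KO there were 4 higher and 10 lower (background 2.84% and 3.24%), and in V against HxD 1 higher and 3 lower (1.06% and 1.27%). Non-overlapping groups with V lower than HxD were found for 29 members (11.1%, against 5.20% of the genes at 5 CPM or more) and with V higher for 9 (3.45%, against 5.02%). With V lower than KO there were 24 (9.20%, against 6.48%) and with V higher 13 (4.98%, against 6.71%). With HxD above KO there were 21 (8.05%, against 5.01%) and with HxD below KO 11 (4.21%, against 4.76%). The median log2 difference was -0.11 for V against HxD, -0.07 for V against KO and 0.04 for HxD against KO.

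Many numbered Zfp genes lie side by side in the genome. In the RefSeq order of assembly GRCm38.p6, used for neighbourhood only, 129 of 260 placed members had another numbered Zfp gene as a direct neighbour, and 79 lay in 18 runs with at least 3 members. The longest held 15 members, among them Zfp568, Zfp30, Zfp420 and Zfp940, and their median log2 change was 0.13 in HxD, 0.20 in KO and 0.03 in V. The run of Zfp51, Zfp53, Zfp677 and Zfp948 is given because its KO median was the lowest of the 18 runs. Its medians were -0.54 in HxD, -0.83 in KO and -0.41 in V, with a median level of 6.14 CPM and a median variation of 63.8% over the libraries. Within it Zfp51 went the other way, at 0.92, 1.48 and 0.36. Of the 261 members, 22 had over 20% of their 50-base windows in another annotated gene and 124 had none; whether the shared windows lie in neighbours was not tested.

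The medians of KRAB and other members lay close to each other in HxD and further apart in KO and V, and their difference was not tested. The median log2 change of the 134 KRAB members was 0.03 in HxD, 0.05 in KO and -0.06 in V, and that of the 126 others was 0.03, -0.06 and -0.14. Of the KRAB members 0 were called and of the others 2, both lower in KO, where 0.759% of the genes at 5 CPM or more were called lower. At that share, counts this small do not tell the 2 classes apart. Lower values in V without overlap were found in 13 KRAB members (9.70%) and 18 others (14.3%), beside 8.49% of the genes at 5 CPM or more.

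The partners through which KRAB proteins act were abundant. Of 19 listed genes of this pathway, 18 were not called in KO and 1 was called lower, and 0 were called in HxD or V. Among all genes at 5 CPM or more, 0.759% were called lower in KO, 0.048% were called in HxD and 0.231% in V. Trim28, the KRAB corepressor, was at 1366 ± 157 CPM in WT (mean ± SD, n = 3), 1528 ± 105 in HxD, 1469 ± 162 in KO and 1623 ± 157 in V, with all log2 differences between 0.11 and 0.25. Setdb1 was at 251 ± 39.3 CPM in WT and between 233 and 239 CPM in the means of the mutants. The called gene was Uhrf1, which brings DNMT1 to newly replicated DNA, at between 78.2 and 113 CPM in WT, and at 51.7 ± 5.93 in HxD, 48.5 ± 10.4 in KO and 51.8 ± 6.22 in V. Its log2 change was -1.02 ± 0.23 (SE) in KO with an adjusted p of 0.0223 by edgeR, beside -0.92 ± 0.23 in both HxD and V with adjusted p of 0.193 and 0.0841. Dnmt1 differed by at most 0.17 on the log2 scale in any mutant, and the medians of the 19 genes were -0.01 in HxD, 0.11 in KO and 0.08 in V. Sumo2, a gene that every cell uses, was listed at 0 to 1.94 CPM in this table, and the cause was not tested.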

How the data were processed

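The deposited file is a single table of raw counts, genes by 12 columns, which were matched to the samples by title. The authors' tools named in the submitters' processing notes include featureCounts 2.0.3, STAR 2.7.10b and Trim Galore 0.6.7, with no settings, and the notes name both GRCm39 and mm10 without a role. Neither the annotation nor the handling of strand and of multiply mapping reads is given in the sources used here, so counts of members that share sequence, or overlap another gene, are uncertain. No molecular identifiers were described.

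Counts were tested with edgeR 4.0.16 in R 4.3.3 (two-sided quasi-likelihood F test, TMM, default filterByExpr, group as the only term, 1 fit of all 12 libraries, Benjamini-Hochberg adjustment over 16166 genes, threshold 0.05). SE is the log2 change divided by the square root of F. The script was tested on simulated data. DESeq2 1.42.0 and limma-voom (limma 3.58.1), other filters and scalings, and leaving out libraries were alternatives. Within groups, any pair of libraries differed beyond counting noise (chi-square over its degrees of freedom 37.7 or more).

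Exon lengths, coding sequences and shared 50-base windows came from GENCODE M21. C2H2 fingers and KRAB boxes were found as patterns in the translated sequence and may miss degenerate domains. Promoters came from RefSeq (GRCm38.p6). CPM between libraries used a pseudocount of 0.5 for log2 medians per library.

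The members, role lists and tests were chosen with earlier results of these data known. Named genes were all called members, the 4 of largest change in each direction and comparison whose groups did not overlap, the 6 of highest level, the 3 of least and of most variation, the role lists and the genes next to the threshold. Some further genes were named outside this rule, to identify a run of neighbours, complete a count, head an order or show a flagged pattern.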

Additional observations from a re-analysis of the deposited data

Results flagged for a closer look

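Zfp652, a transcriptional repressor, was the 1 member whose libraries lay on opposite sides of WT in 2 mutants (0.383% of members, against 0.173% of the genes at 5 CPM or more). It was at 32.4, 36.3 and 36.5 CPM in WT and at 26.1, 37.8 and 45.2 in HxD. The KO libraries were at 40.2, 42.7 and 45.2 and the V libraries at 29.6, 19.8 and 29.9. All KO libraries were above all WT libraries and all V libraries below them, while HxD spanned the WT range. The direct difference of V against KO was -0.69 on the log2 scale, with an unadjusted p of 0.0199 and an adjusted p of 0.945 by edgeR, so it was not called. Neither difference from WT was called (V by -0.41 ± 0.28 and KO by 0.28 ± 0.28, SE).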

How the results depend on the processing

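Each comparison was repeated under 20 alternatives. The count of called members for HxD (0) became 1 with DESeq2, 1 without the filter on low counts and 2 without HxD1, KO1 and KO3, and lay between 0 and 1 when leaving out 1 library at a time. That for KO (2) became 6 with DESeq2, 5 without the filter, 0 in a fit of the 2 groups alone and 6 without those 3 libraries, and lay between 0 and 7 when leaving out 1 library at a time. That for V (0) became 7 with DESeq2, 1 without the filter and 6 without those 3 libraries, and lay between 0 and 1 when leaving out 1 library. The share of all genes called under each alternative is not given here, so these counts say nothing about the members in particular. Counts between mutants stayed at 0 in every alternative, and no median moved by more than the spread between libraries (0.0911, SD on the log2 scale).

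Between groups, deviations from the group mean correlated above 0.1 in 1 of 18 same-numbered pairs of libraries. The same held for 5 of 36 differently numbered pairs. With 3 libraries per group, these correlations cannot show whether same-numbered libraries share a litter or batch. With the replicate block KO had 4 called members (Zfp512, Zfp568, Zfp622 and Zfp936), and the HxD value of Zfp783 became -0.00639 from 0.08. The share of all genes called in that fit is not given, so this count says nothing about the members in particular. Other counts of calls kept their value under the block.

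The 19 called or most changed members were followed gene by gene through the alternatives, the other members only through the counts of calls and the medians. Among the 19, directions turned for 3 genes, none called. For Zfp534 the HxD value became -0.39 with limma-voom, and the V value -1.33 with limma-voom and between -1.81 and 1.05 when leaving out 1 library (below 0 without V3 or WT1). For Zfp783 the HxD value became -0.17 with limma-voom, -0.49 without HxD1, KO1 and KO3, and between -0.48 and 0.48 when leaving out 1 library (below 0 without HxD1 or WT3). For Zfp932 the HxD value of -0.04 became 0.0129 with limma-voom, 0.0546 without the 3 libraries, and between -0.20 and 0.0730 when leaving out 1 library (above 0 without HxD1, WT2 or WT3). The cause was not tested. At 3 libraries a group, low members such as these carry an SE above 0.5 on the log2 scale, and a missing call does not show equal levels.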
